A study of Mus musculus with 26 samples.

Results

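The keratin gene family was taken as every gene symbol made of Krt, a number and at most 1 further letter, which found 54 of the 56738 symbols in the count table of primary mouse keratinocytes. Of these 54 keratin genes, 26 averaged more than 10 normalized counts per library and were tested, 28 were below that level, and 6 (*Krt12*, *Krt26*, *Krt33a*, *Krt33b*, *Krt34* and *Krt35*) had no count in any library. On the GENCODE annotation of GRCm39, 53 members matched 1 gene each, 27 on chromosome 11 and 26 on chromosome 15. *Krt4* (11.3), *Krt19* (13.2) and *Krt32* (14.4) had the lowest mean normalized counts over the filter, and *Krt76* (7.18), *Krt74* (6.99) and *Krt87* (6.88) the highest below it.

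The cells were isolated from the epidermis of neonatal mice aged 2 days. They were wild type (WT, n = 5 mice) or homozygous for a CRISPR/Cas9 deletion of exon 3 of *Pla2g4d* (KO, n = 8 mice). This is the gene of a cytosolic phospholipase A2. The KO line was backcrossed to C57BL/6NJ, and the strain of the WT mice is not given in the sources used here. All cells were cultured for 4 days at 0.06 mM CaCl2, a low calcium level that holds keratinocytes in a largely undifferentiated state. Wells of the same animal were pooled and animals were kept apart. One culture of each mouse stayed under basal conditions and a second was exposed for 24 h to IL17A and TNFα, each at 20 ng/ml, so 13 mice gave 26 bulk RNA-seq libraries. The deletion was bred as a germline allele of the whole animal, and the counts of *Pla2g4d* per gene include reads outside the deleted exon. Scaled to library size (CPM), these counts lay between 28.6 and 65.2 in WT and 29.2 and 59.2 in KO cells with cytokines, and between 1.22 and 4.63 and 1.15 and 2.98 under basal conditions, which does not check the deletion. Total counts lay between 42072745 and 78102858 per library.

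Keratins are the intermediate filament proteins of epithelial cells, and every filament is built from pairs of an acidic type I and a basic type II keratin. In the epidermis, *Krt5* and *Krt14* form the filaments of the basal layer, and cells that leave this layer switch to *Krt1* and *Krt10*. *Krt6a*, *Krt6b*, *Krt16* and *Krt17* are induced in wounded or inflamed epidermis, *Krt8* and *Krt18* are the pair of simple epithelia, and a large set of further keratins belongs to the hair follicle and hair shaft.

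The labelled cell type was checked against 7 markers of keratinocytes (*Trp63*, *Cdh1*, *Itga6*, *Itgb4*, *Dsg3*, *Col17a1* and *Epcam*), which were detected in every group and summed to between 7213 and 8816 CPM per library. Markers of fibroblasts summed to between 1.69 and 7.43 CPM, of Merkel cells to between 0.574 and 2.28 CPM, of sebocytes to between 0.0862 and 0.850 CPM and of immune cells to between 18.3 and 54.2 CPM, with the Langerhans cell gene *Cd207* at 0 in all 26 libraries. Melanocyte markers were higher, between 305 and 638 CPM, and markers of hair follicle cells lay between 158 and 321 CPM. Of the 17 keratins with a mean normalized count over 100, WT replicate 2 had the highest value of its group for 9 under basal conditions, and WT replicate 1 the lowest for 8 with cytokines. KO replicate 8 was highest for 8 under basal conditions and for 7 with cytokines. Calls that changed when 1 mouse was left out are given without it. This was followed for keratins called with all mice or with a mean normalized count over 100.

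Keratin transcripts made up 6.46 ± 0.229% of all counts (SD, n = 5) in WT cells under basal conditions and 6.35 ± 0.251% (SD, n = 8) in KO cells. With IL17A and TNFα the share was 4.88 ± 0.152% in WT and 4.89 ± 0.132% in KO cells, and the ranges of basal and treated libraries did not overlap in either genotype. The genes *Krt5*, *Krt14*, *Krt6a* and *Krt17* together took between 84.2% and 93.0% of all keratin counts. Per kilobase of transcript, basal keratins held 58.0 ± 2.68% of the keratin CPM in WT cells under basal conditions and 57.6 ± 1.31% with cytokines, and stress-induced keratins held 38.1 ± 2.08% and 41.1 ± 1.11%. The suprabasal share was small and fell, from 3.38 ± 0.697% to 0.302 ± 0.0781% in WT and from 2.18 ± 0.549% to 0.161 ± 0.0461% in KO cells. Its size depended on the length used. Per kilobase of the union of all exons it fell from 2.58 ± 0.535% to 0.251 ± 0.0661% in WT and from 1.70 ± 0.443% to 0.144 ± 0.0409% in KO cells. In bulk RNA, fewer cells of a kind and less RNA per cell cannot be told apart.

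**Figure D1:**
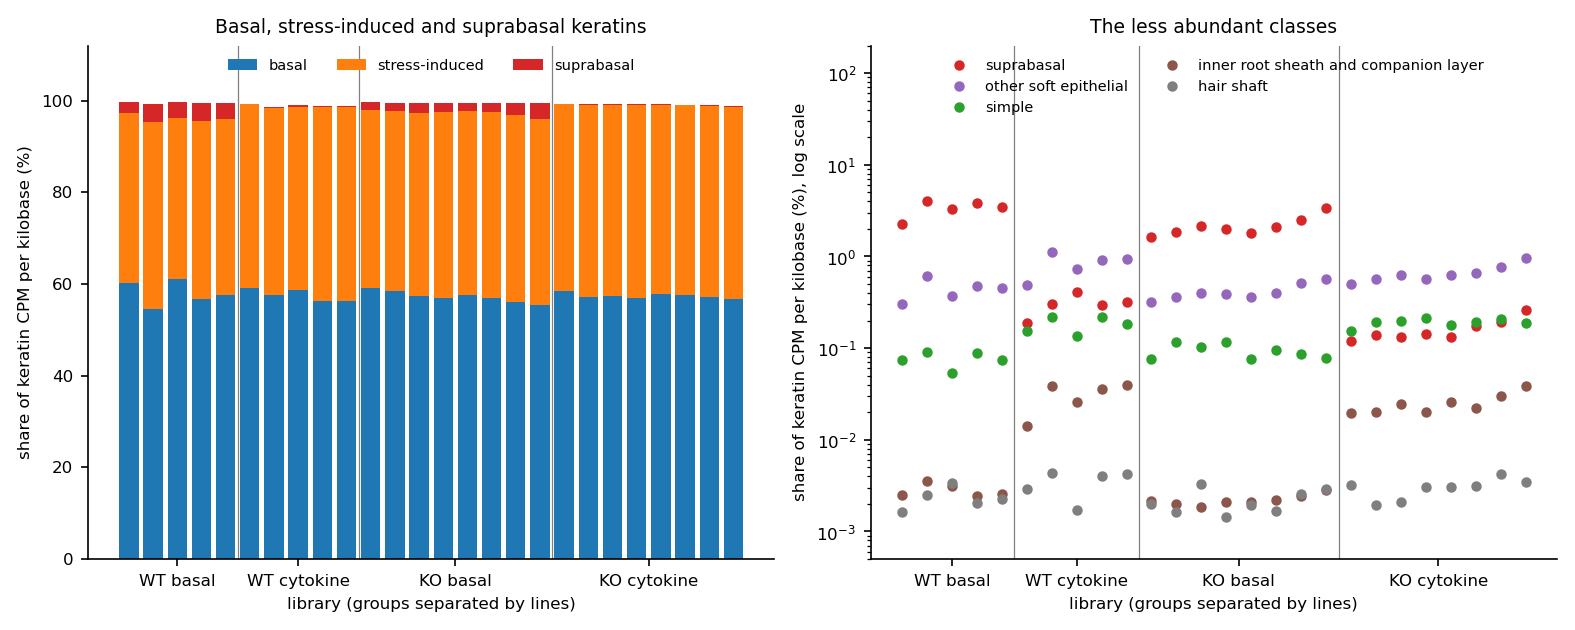
Share of the keratin CPM per kilobase of transcript held by each class of keratins in each of the 26 libraries, as stacked bars from 0 for the 3 main classes (left) and as points on a log scale for the smaller classes (right). The suprabasal points of the treated libraries sit between 0.120% and 0.406%, below all basal libraries (1.64% to 4.04%).

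The order of the abundant genes was nearly the same in all groups. Per kilobase, *Krt5* had 9583 ± 719 CPM in WT cells under basal conditions and *Krt14* 8942 ± 267 CPM (SD, n = 5), with overlapping ranges, although *Krt5* was above *Krt14* in 5 of 5 libraries. *Krt6a* (4813 ± 472 CPM per kilobase) and *Krt17* (4483 ± 335) also overlapped, and were followed by *Krt16* (2118 ± 393), *Krt6b* (759 ± 139), *Krt1* (620 ± 143) and *Krt10* (434 ± 94.5). *Krt80*, a type II keratin of many epithelia, came next with 138 ± 41.0 and was the most abundant keratin outside the classical epidermal set. With cytokines *Krt17* stood above *Krt6a* in both genotypes without overlap (4740 against 3373 CPM per kilobase in WT and 5215 against 3347 in KO cells). In KO cells *Krt17* was already above *Krt6a* under basal conditions in 8 of 8 libraries (5594 against 4858 CPM per kilobase), with overlapping ranges. *Krt1* fell from the seventh to the eighth place in WT and from the seventh to the eleventh in KO cells, and *Krt10* from the eighth to the twelfth and thirteenth. These levels use the length of the canonical transcript, and *Krt1* and *Krt80* depended on it. Per kilobase of the union of all exons, *Krt1* had 345 ± 79.3 CPM in WT cells under basal conditions, below *Krt10* (430 ± 93.6), and *Krt80* 66.2 ± 19.7. By that length *Krt10* came before *Krt1* under basal conditions in both genotypes, and *Krt1* fell from the eighth to the tenth place in WT and to the eleventh in KO cells.

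IL17A and TNFα changed the family in both directions. A gene was called where edgeR's quasi-likelihood test gave a Benjamini-Hochberg adjusted p under 0.1 over all genes tested and the fold change was over 1.5. In WT cells 11 of 26 tested keratins were called, against 13.9% of all genes tested. Of these, 5 rose (all genes: 8.65%) and 6 fell (5.26%). In KO cells 10 of 26 were called, against 10.9% of all genes, with 4 higher (6.33%) and 6 lower (4.55%). The 10 called in KO cells were also called in WT cells, and the 11th in WT was *Krt42*. The median log2 fold change was 0.05 over the 26 keratins in WT and -0.11 in KO cells, beside 0.01 and 0.00 over all genes tested.

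**Figure D2:**
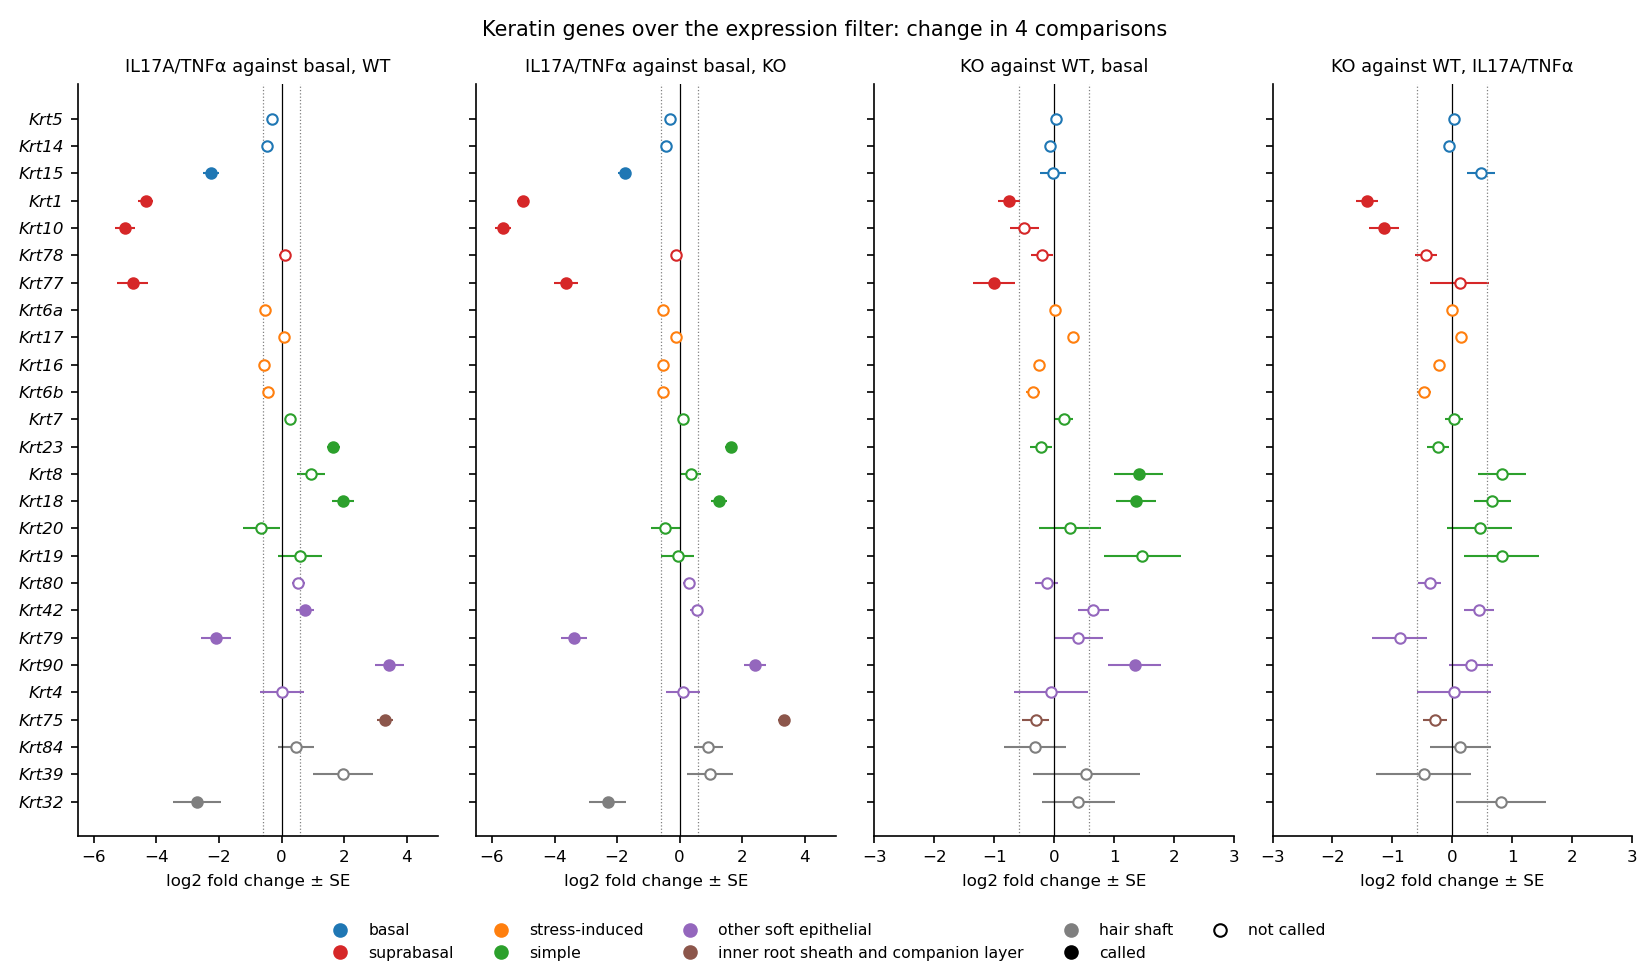
Log2 fold change ± SE of the 26 tested keratins in 4 comparisons, from edgeR's quasi-likelihood fit of all 26 libraries, coloured by class, with filled points for called genes and dotted lines at a 1.5-fold change. *Krt1*, *Krt10* and *Krt77* lie farthest to the left after cytokines (-3.63 to -5.64), *Krt75* and *Krt90* farthest to the right (2.42 to 3.45), while the genotype panels, drawn on a narrower axis, stay within -1.42 and 1.47.

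The 2 keratins of the first suprabasal layer fell most among the abundant members. *Krt1* (type II, chr15:101753861-101759229, minus strand, GRCm39) had 1033, 1908, 1415, 1811 and 1440 CPM in WT replicates 1 to 5 under basal conditions and 55.7, 70.8, 107, 71.7 and 69.8 CPM with cytokines. In KO cells it ran from 726 to 1447 CPM (median 813) without and from 18.1 to 45.3 CPM (median 24.5) with cytokines. All treated libraries were below all basal ones in both genotypes, and the log2 fold change was -4.34 ± 0.24 (SE) in WT (20.3-fold lower, adjusted p = 1.6e-14) and -5.01 ± 0.19 in KO cells (32.2-fold lower, adjusted p = 5.6e-18).

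*Krt10*, its type I partner (chr11:99276072-99280195, minus strand), had 583, 1060, 969, 1069 and 888 CPM in WT replicates 1 to 5 under basal conditions and 14.1, 19.7, 54.3, 25.8 and 29.5 CPM with cytokines. In KO cells it went from between 523 and 1139 CPM (median 549.8) to between 8.28 and 23.0 CPM (median 12.2). It fell in 5 of 5 WT and 8 of 8 KO mice, by 32.0-fold in WT (log2 -5.00 ± 0.32, adjusted p = 4.9e-13) and 50.02-fold in KO cells (log2 -5.64 ± 0.27, adjusted p = 3.4e-16). The pair did not fall in step: the ratio of *Krt1* to *Krt10* per kilobase, taken within a library, was 1.43 ± 0.117 in WT cells under basal conditions and 2.52 ± 0.713 with cytokines, and 1.21 ± 0.0668 and 1.92 ± 0.380 in KO cells, with no overlap in either genotype. Per kilobase of exon union the ratio was below 1 under basal conditions (0.804 ± 0.0657 in WT and 0.681 ± 0.0375 in KO cells) and was 1.41 ± 0.400 and 1.08 ± 0.214 with cytokines. The length scales all libraries alike, so the relative shift within a genotype is the same, but which of the pair is the higher is not settled.

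The next 2 suprabasal keratins behaved differently from each other. *Krt77*, a type II keratin closely related to *Krt1* (chr15:101767166-101778245), was scarce, with 1.46 to 3.99 CPM in WT cells under basal conditions and 0.0398 to 0.141 CPM (2 to 10 counts) with cytokines. It fell by 4.76 ± 0.50 on the log2 scale in WT and by 3.63 ± 0.39 in KO cells (adjusted p = 9.0e-09 and 1.1e-08), without overlap. *Krt78*, a type II keratin of stratified epithelia, had 94.8 ± 22.8 CPM under basal conditions and 103 ± 25.9 CPM with cytokines in WT cells, and 82.4 ± 17.3 and 75.9 ± 20.7 CPM in KO cells, with overlapping ranges and adjusted p of 0.70 and 0.65. The remaining members of the class, *Krt2* of the upper epidermal layers and *Krt9* of palm and sole skin, reached at most 10 and 18 counts in any library.

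**Figure D3:**
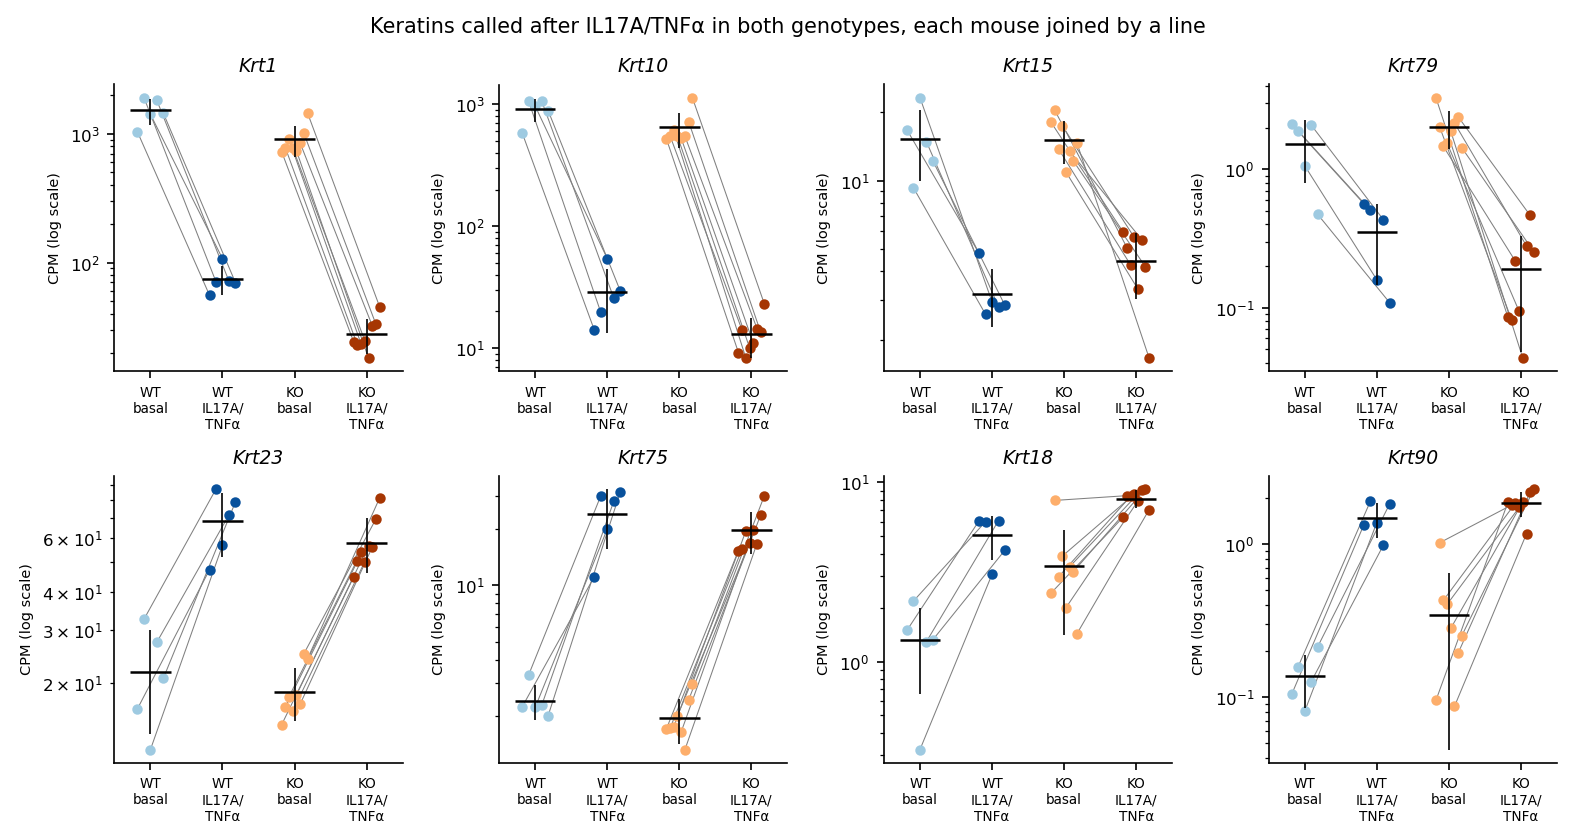
CPM on log axes of 8 of the keratins called after IL17A/TNFα in both genotypes, 1 point per library, with grey lines joining both libraries of a mouse and black bars for the mean ± SD of 5 WT or 8 KO libraries. *Krt1*, *Krt10*, *Krt15* and *Krt79* fell and *Krt23*, *Krt75*, *Krt18* and *Krt90* rose in each of the 13 mice.

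Among basal keratins the abundant pair was lower by less than the 1.5-fold threshold. *Krt5* (chr15:101615505-101621346) had 22793, 19782, 22755, 21133 and 19427 CPM in WT replicates 1 to 5 under basal conditions and 18639, 16370, 17072, 16440 and 16754 CPM with cytokines. In KO cells it had 20084 to 24258 CPM (median 21581) and 17089 to 18345 CPM (median 17366). The groups did not overlap, and the log2 fold changes were -0.31 ± 0.05 in WT (adjusted p = 9.6e-06) and -0.31 ± 0.04 in KO cells (adjusted p = 2.3e-07).

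*Krt14* (chr11:100093988-100098490) had 16147, 16010, 16768, 16616 and 15561 CPM in WT replicates 1 to 5 under basal conditions and 11722, 11827, 11931, 11569 and 11794 CPM with cytokines. It had 14048 to 16854 CPM (median 15343) and 10859 to 12186 CPM (median 11273) in KO cells. Here too no treated library reached a basal one, with log2 fold changes of -0.46 ± 0.04 in WT and -0.45 ± 0.03 in KO cells (adjusted p = 7.4e-10 and 8.9e-12). The *Krt5* to *Krt14* ratio per kilobase was 1.07 ± 0.0625 in WT cells under basal conditions and 1.19 ± 0.0662 with cytokines, and 1.15 ± 0.0404 and 1.27 ± 0.0532 in KO cells, with overlapping ranges in both.

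*Krt15*, a type I keratin of basal keratinocytes and of hair follicle stem cells (chr11:100022584-100026775), fell well past the threshold. WT replicates 1 to 5 had 16.7, 9.31, 23.1, 14.8 and 12.2 CPM under basal conditions and 4.80, 2.59, 2.95, 2.80 and 2.83 CPM with cytokines. KO cells had 10.9 to 20.3 CPM (median 14.2) and 1.67 to 5.95 CPM (median 4.68). The groups did not overlap, and *Krt15* fell by 2.25 ± 0.26 on the log2 scale in WT and by 1.76 ± 0.20 in KO cells (4.76-fold and 3.38-fold, adjusted p = 6.0e-08 and 4.6e-08).

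None of the 4 stress-induced keratins was called after the cytokines, and *Krt6a*, *Krt16* and *Krt6b* were lower in treated cells of both genotypes by less than 1.5-fold. *Krt6a* (chr15:101598345-101602742) had 10066, 12543, 10086, 11580 and 10541 CPM in WT replicates 1 to 5 under basal conditions and 7577, 8061, 7142, 7803 and 7833 CPM with cytokines. Its log2 fold change was -0.51 ± 0.05 in WT and -0.54 ± 0.04 in KO cells (adjusted p = 1.0e-09 and 2.6e-12), without overlap. *Krt16*, its type I partner, measured 3456 ± 642 CPM untreated and 2365 ± 131 CPM treated in WT, and 2910 ± 261 and 2036 ± 142 CPM in KO cells, again without overlap (log2 -0.55 ± 0.09 and -0.52 ± 0.07, adjusted p = 1.1e-05 and 6.5e-07). The fall of *Krt16* in WT cells passed the 1.5-fold threshold without WT replicate 3 (adjusted p = 7.3e-06) or WT replicate 5 (6.4e-05).

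*Krt6b* (chr15:101584458-101588722) had 1396, 2127, 1398, 1842 and 1716 CPM in WT replicates 1 to 5 under basal conditions and 1040, 1186, 1382, 1328 and 1399 CPM with cytokines. It was lower after treatment in all 5 WT mice and all 8 KO mice, and the log2 fold changes were -0.42 ± 0.13 and -0.54 ± 0.10 (adjusted p = 0.012 and 0.00011), although the ranges overlapped. *Krt17* was the exception of the class: its WT libraries had 6884 to 8308 CPM without and 7238 to 8347 CPM with cytokines (log2 0.08 ± 0.06, adjusted p = 0.31), and in KO cells the log2 fold change was -0.10 ± 0.04 (adjusted p = 0.090). Transcripts of *Krt6a* and *Krt6b* are 92.6% identical over 2184 aligned bases, and 18.5% of the 150-base windows of *Krt6a* occur unchanged in *Krt6b*, so their split of reads is uncertain. Summed, they had log2 fold changes of -0.50 in WT and -0.53 in KO cells. The annotation also places genes on the opposite strand over *Krt5*, *Krt6a*, *Krt6b*, *Krt10* and *Krt80*. Such genes also lie over *Krt7*, *Krt8*, *Krt32*, *Krt75* and *Krt90*, with median counts of at most 28, and over *Krt19*, by a gene without counts here. The library kit keeps strand, but the strand setting of the counting is not given in the sources used here, so these values are uncertain to that extent.

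**Figure D4:**
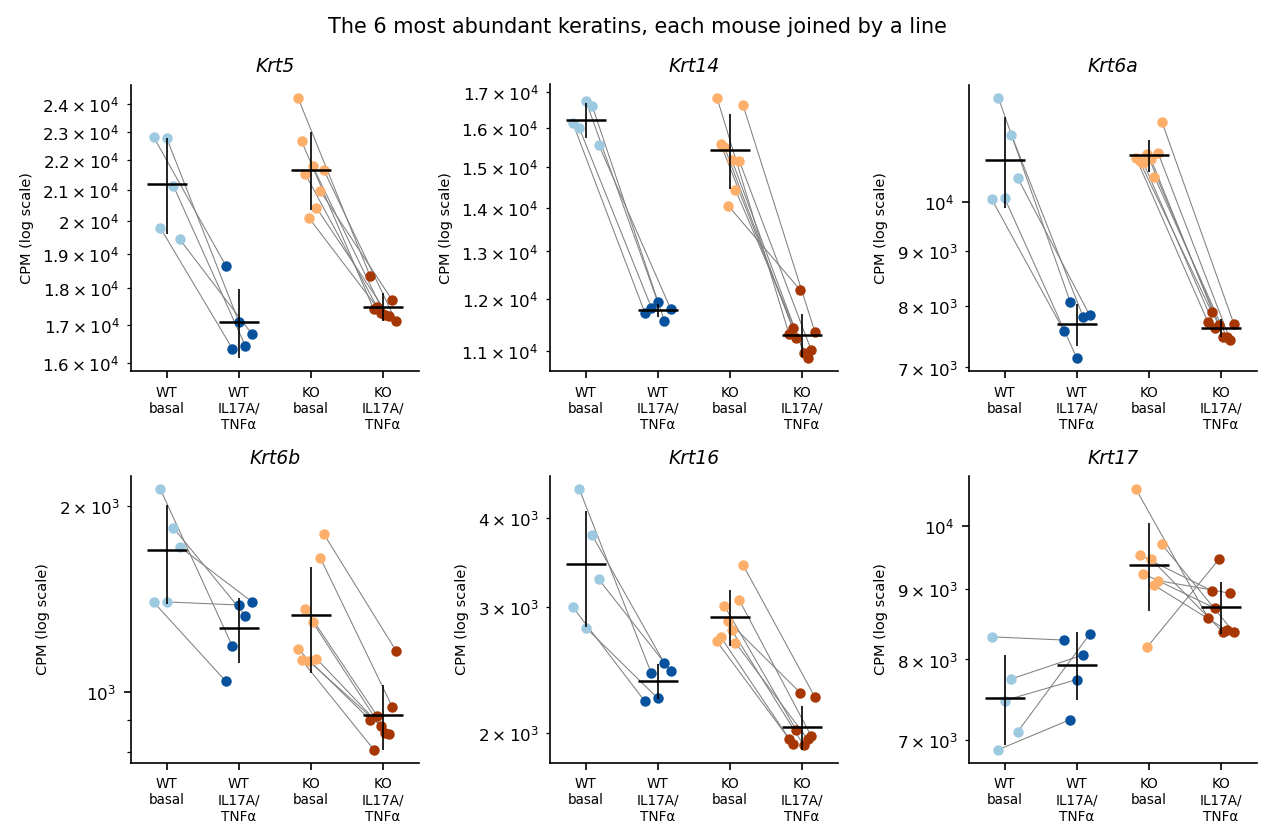
CPM on log axes of the 6 most abundant keratins, 1 point per library, with grey lines joining both libraries of a mouse and black bars for the mean ± SD. *Krt5*, *Krt14*, *Krt6a* and *Krt16* sit lower in all treated libraries than in any basal library of the same genotype, whereas the ranges of *Krt17* overlap, with basal means shown apart by genotype (7500 ± 561 CPM for WT, 9359 ± 692 CPM for KO).

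Of the keratins of simple epithelia, *Krt23* and *Krt18* rose. *Krt23*, a type I keratin (chr11:99366873-99383963), had 16.5, 32.4, 12.1, 27.3 and 20.8 CPM in WT replicates 1 to 5 under basal conditions and 47.3, 87.2, 56.9, 71.6 and 79.1 CPM with cytokines. KO cells went from between 14.6 and 25.0 CPM (median 17.6) to between 44.8 and 81.5 CPM (median 55.1). The rise was 3.14-fold in WT (log2 1.65 ± 0.21, adjusted p = 2.5e-07) and 3.09-fold in KO cells (log2 1.63 ± 0.17, adjusted p = 4.2e-09), without overlap.

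*Krt18*, the type I keratin of simple epithelia (chr15:101936615-101940462), had 1.49, 2.17, 0.322, 1.29 and 1.32 CPM in WT replicates 1 to 5 under basal conditions and 6.10, 6.03, 3.06, 6.11 and 4.19 CPM with cytokines. In KO cells it had 1.43 to 7.92 CPM (median 3.07) and 6.40 to 9.17 CPM (median 8.40), and it rose in 5 of 5 WT and 8 of 8 KO mice. The log2 fold changes were 1.96 ± 0.36 in WT (3.88-fold, adjusted p = 7.5e-05) and 1.26 ± 0.27 in KO cells (2.39-fold, adjusted p = 0.00050), with overlap in KO cells through replicate 2 under basal conditions.

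Its type II partner *Krt8* (chr15:101905133-101912917) had 8.82, 3.08, 1.61, 1.42 and 1.28 CPM in WT replicates 1 to 5 under basal conditions and 11.4, 6.43, 4.06, 5.16 and 4.12 CPM with cytokines. It was higher with cytokines in 5 of 5 WT mice, yet the groups overlapped because replicate 1 was high in both, and the log2 fold change of 0.95 ± 0.45 was not called (adjusted p = 0.11). With the mouse as a block it was called (adjusted p = 4.5e-05), as it was when WT replicate 1 (0.0056) or 1 of the KO replicates 2 (0.095) and 8 (0.089) was left out. In KO cells *Krt8* had 3.25 to 17.6 CPM (median 8.23) and 5.88 to 17.0 CPM (median 11.3), with a log2 fold change of 0.36 ± 0.34 (adjusted p = 0.48). It was higher with cytokines in 7 KO mice and lower in 1. The lowest adjusted p over 7 other settings, which include the mouse as a block, was 0.015, with the change under the 1.5-fold threshold. The ratio of *Krt8* to *Krt18* per kilobase was 2.11 ± 1.75 in WT and 1.96 ± 0.687 in KO cells under basal conditions, and 0.894 ± 0.298 and 1.005 ± 0.288 with cytokines, with overlap in both genotypes.

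*Krt7*, *Krt19* and *Krt20*, found in glandular, ductal and intestinal epithelia, were not called, with log2 fold changes from -0.65 to 0.59 over both genotypes. Markers of endothelial cells moved the same way as *Krt18*. The 4 markers summed to 1.37 to 3.03 CPM in WT cells under basal conditions and 3.502 to 5.36 CPM with cytokines, and to 1.79 to 4.79 and 4.85 to 5.96 CPM in KO cells, with *Cdh5* at 0 in every library of 3 groups. *Pecam1* and *Kdr*, the 2 of these 4 markers that were tested, rose in both genotypes, and their part in the rise of *Krt18* was not tested. The 6 immune markers summed to 18.8 to 30.4 CPM without and 30.0 to 48.9 CPM with cytokines in WT cells, and to 18.3 to 36.8 and 25.4 to 54.2 CPM in KO cells, with *Cd68* called in WT (log2 0.75). The epithelial adhesion gene *Epcam* rose in both genotypes (log2 1.67 in WT and 1.31 in KO cells). Their part in the rise of the simple keratins was not tested either. Merkel cells also make *Krt8*, *Krt18* and *Krt20*. The 5 Merkel cell markers together stayed at or below 2.28 CPM in every library, and *Piezo2* alone among the 3 tested rose in both genotypes.

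The steepest rises came from scarce keratins. *Krt75*, a type II keratin of the companion layer around the hair shaft (chr15:101471780-101482339), had 2.24, 3.32, 2.22, 2.28 and 2.01 CPM in WT replicates 1 to 5 under basal conditions and 11.1, 30.0, 19.9, 28.02 and 31.4 CPM with cytokines. In KO cells it went from between 1.32 and 2.98 CPM (median 1.74) to between 15.3 and 30.1 CPM (median 18.1). No ranges overlapped, and *Krt75* rose 9.97-fold in WT (log2 3.32 ± 0.25, adjusted p = 1.0e-11) and 10.1-fold in KO cells (log2 3.34 ± 0.20, adjusted p = 5.2e-14). The other 8 keratins of the inner root sheath and companion layer were below the filter, with at most 28 counts in any library. Markers of hair follicle cells summed to 158 to 202 CPM in WT cells under basal conditions and to 230 to 321 CPM with cytokines (211 to 252 and 223 to 298 CPM in KO cells). Of these 6 markers *Sox9* rose in WT and *Lgr5* fell in both genotypes, and their part in the change of *Krt75* was not tested.

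*Krt90* (chr15:101460791-101471385), which lies next to *Krt75* on the annotation, rose from 0.0805 to 0.213 CPM (5 to 9 counts) up to 0.975 to 1.89 CPM (45 to 134 counts) in WT cells. The log2 fold changes were 3.45 ± 0.47 in WT and 2.42 ± 0.34 in KO cells (adjusted p = 1.0e-06 and 1.7e-06), without overlap. *Krt42*, a type I keratin neighbouring *Krt17* (chr11:100153708-100160697), had 9.70, 3.40, 2.74, 4.25 and 3.97 CPM in WT replicates 1 to 5 under basal conditions and 11.7, 8.84, 7.00, 6.20 and 6.75 CPM with cytokines. It rose in WT cells (log2 0.75 ± 0.28, adjusted p = 0.041), but not without WT replicate 2 (0.17) or WT replicate 3 (0.13). The KO log2 fold change of 0.54 ± 0.22 (adjusted p = 0.059) was under the 1.5-fold threshold, and *Krt42* was called there without KO replicate 1 (0.064) or KO replicate 5 (0.044).

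A pair of scarce follicle keratins fell instead. *Krt79*, a type II keratin of the hair canal (chr15:101837767-101848759), had 1.53 ± 0.730 CPM in WT cells under basal conditions and 0.355 ± 0.208 CPM with cytokines, and 2.03 ± 0.622 and 0.190 ± 0.142 CPM in KO cells. It fell by 2.09 ± 0.48 and 3.37 ± 0.41 on the log2 scale (adjusted p = 0.0011 and 1.2e-07), with overlap in WT only. *Krt32*, a type I keratin of the hair cuticle (chr11:99971674-99979100), was at most 58 counts in any library and fell by 2.705 ± 0.78 in WT and 2.30 ± 0.59 in KO cells on the log2 scale (adjusted p = 0.0081 and 0.0031). Without WT replicate 3 the WT log2 fold change was -1.93 ± 0.80 (adjusted p = 0.078). Of the other hair shaft keratins, only *Krt39* and *Krt84* passed the filter, and neither was called. *Krt80* was higher in 13 of 13 mice, with a log2 fold change of 0.54 ± 0.21 in WT (adjusted p = 0.049, under the 1.5-fold threshold) and 0.29 ± 0.17 in KO cells (adjusted p = 0.21). Over 7 other settings, which include the mouse as a block, the lowest adjusted p was 2.0e-08 in WT and 3.6e-06 in KO cells. The change of *Krt80* stayed under the 1.5-fold threshold in all of them.

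The 250 bases before the annotated start of 4 genes that marked these opposite changes are shown, *Krt10* as the one that fell furthest and *Krt23*, *Krt75* and *Krt18* as 3 that rose in both genotypes. They come from RefSeq (GRCm38.p6) and read 5′ to 3′ on the strand of the gene, with capitals for matches to the motifs searched.
*Krt10* (chr11:99389365-99389614, minus strand): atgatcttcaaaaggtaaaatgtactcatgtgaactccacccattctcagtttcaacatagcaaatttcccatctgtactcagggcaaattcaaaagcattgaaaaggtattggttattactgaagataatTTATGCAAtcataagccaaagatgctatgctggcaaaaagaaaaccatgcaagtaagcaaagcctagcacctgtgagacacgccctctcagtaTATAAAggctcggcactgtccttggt
*Krt23* (chr11:99493121-99493370, minus strand): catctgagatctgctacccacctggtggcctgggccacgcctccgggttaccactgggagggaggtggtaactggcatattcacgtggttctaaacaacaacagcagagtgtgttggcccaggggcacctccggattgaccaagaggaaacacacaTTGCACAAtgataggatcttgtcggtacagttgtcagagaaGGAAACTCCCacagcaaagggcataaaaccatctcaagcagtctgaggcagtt
*Krt75* (chr15:101573905-101574154, minus strand): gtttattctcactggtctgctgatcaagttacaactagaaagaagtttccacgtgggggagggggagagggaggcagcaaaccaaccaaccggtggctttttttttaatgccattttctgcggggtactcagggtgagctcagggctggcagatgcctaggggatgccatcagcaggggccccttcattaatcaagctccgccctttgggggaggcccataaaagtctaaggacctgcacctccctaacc
*Krt18* (chr15:102027966-102028215, plus strand): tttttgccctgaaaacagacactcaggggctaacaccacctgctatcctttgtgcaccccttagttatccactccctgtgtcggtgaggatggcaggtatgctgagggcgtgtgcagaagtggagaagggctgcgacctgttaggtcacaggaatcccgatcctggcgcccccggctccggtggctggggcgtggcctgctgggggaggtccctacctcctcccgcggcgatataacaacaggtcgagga
The motifs, searched on both strands, were the TATA box (TATAAA), AP-1 (TGANTCA), NF-kB (GGGA, any 2 bases, then TTCC), STAT (TTCNNNGAA) and C/EBP (TTGCNNAA), and 17 of the 26 tested keratins had an entry in the table. *Krt10* held a TATA box from position -26 to -21, counted back from the start, and on the opposite strand a C/EBP match from -119 to -112. *Krt23* held a C/EBP match from -94 to -87 and a NF-kB match from -53 to -44, the latter on the opposite strand, whereas *Krt75* and *Krt18* held no match in this window. Over the 17 promoters the NF-kB letters occurred in *Krt14* and *Krt23*, against 1.17% of all 27025 promoter windows of this length in the table, and the C/EBP letters in *Krt10*, *Krt23* and *Krt77*, against 9.55%. The TATA box was found in 4 of 17 (*Krt10*, *Krt20*, *Krt32* and *Krt84*; all promoters: 12.97%), the STAT letters in *Krt42* alone (7.18%) and the AP-1 letters in none (6.87%).

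Fewer keratins differed between KO and WT cells. The study moved the KO line to homozygous breeding, so effects of genotype and of litter cannot be told apart. Under basal conditions 5 of 26 tested keratins were called between KO and WT cells, against 2.68% of all genes, with *Krt8*, *Krt18* and *Krt90* higher in KO (all genes higher: 1.61%) and *Krt1* and *Krt77* lower (1.07%). With IL17A and TNFα 2 of 26 were called, *Krt1* and *Krt10*, both lower in KO (all genes in either direction: 0.704%, lower: 0.556%). The median log2 fold change over the keratins was 0.00 under basal conditions and 0.03 with cytokines. The comparisons share libraries with those of the cytokines, so they are not independent of them.

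Of the suprabasal pair, *Krt1* was lower in KO cells under both conditions. Under basal conditions, where WT had 1033 to 1908 CPM and KO 726 to 1447 CPM, the log2 fold change was -0.75 ± 0.18 (1.69-fold lower, adjusted p = 0.0078), with overlapping ranges. With cytokines, where WT libraries had 55.7 to 107 CPM and KO libraries 18.1 to 45.3 CPM, it was -1.42 ± 0.19 (2.68-fold lower, adjusted p = 0.00015), and no KO library reached a WT library. Both calls held with each of the 13 mice left out in turn and under all 7 other settings tried.

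*Krt10* was lower in KO cells by 1.15 ± 0.25 on the log2 scale with cytokines (2.21-fold, adjusted p = 0.023), where WT libraries had 14.1 to 54.3 CPM and KO libraries 8.28 to 23.0 CPM. This call was lost in limma voom with the mouse as a random block (adjusted p = 0.14), which changes the test along with the block. It was also lost without WT replicate 3, whose 54.3 CPM was the highest value (adjusted p = 0.17). Under basal conditions *Krt10* had a log2 fold change of -0.50 ± 0.24 and was not called (adjusted p = 0.22), but it was without WT replicate 1 (0.063), the lowest WT library, or without KO replicate 8 (0.033), the highest KO library. *Krt77* was lower in KO cells under basal conditions (0.678 to 1.99 CPM against 1.46 to 3.99 CPM, log2 -1.01 ± 0.35, adjusted p = 0.072). That call was lost when WT replicate 2 (0.16), 3 (0.25) or 5 (0.11) or when KO replicate 1 (0.14) or 3 (0.11) was left out, and with no filter (0.13).

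Melanocyte markers were also lower in treated KO cells, with sums of 305 to 406 CPM (median 330.4) against 334 to 477 CPM (median 463) in WT. *Dct* (log2 -0.47, adjusted p = 0.017), *Pmel* (-0.57, 0.017), *Tyr* (-0.43, 0.026) and *Mlana* (-0.38, 0.092) were lower by less than 1.5-fold, and none of the 6 was called. Their part in the differences of *Krt1* and *Krt10* was not tested.

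**Figure D5:**
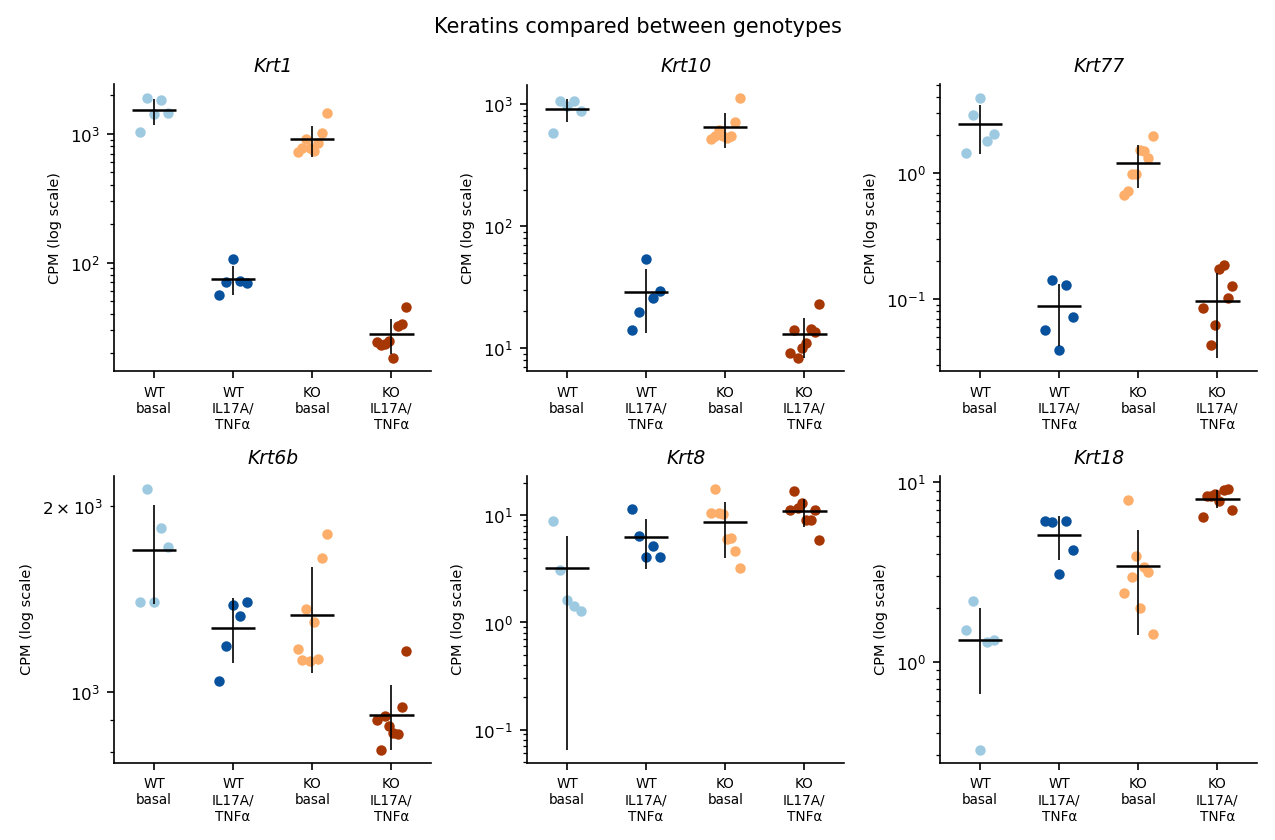
CPM on log axes of 6 keratins in the 4 groups, 1 point per library, with black bars for the mean ± SD of 5 WT or 8 KO libraries. *Krt1* with cytokines shows no overlap between WT (55.7 to 107 CPM) and KO (18.1 to 45.3 CPM), while *Krt8* in WT cells under basal conditions spreads from 1.28 to 8.82 CPM (1 KO library of *Krt77* at 0 is not drawn).

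The simple epithelial pair was higher in KO cells under basal conditions. *Krt18* had 0.322 to 2.17 CPM in WT and 1.43 to 7.92 CPM in KO libraries, a log2 fold change of 1.37 ± 0.33 (2.58-fold, adjusted p = 0.0074) that was called with each mouse left out in turn. *Krt8* had 1.28 to 8.82 CPM in WT and 3.25 to 17.6 CPM in KO libraries, a log2 fold change of 1.41 ± 0.42 (2.65-fold, adjusted p = 0.029) that was lost without WT replicate 4 (0.11). Without WT replicate 1, the highest WT library, it was 2.22 ± 0.36 (adjusted p = 0.00011). *Krt19*, with at most 32 counts in any library, was at 1.47 ± 0.65 under basal conditions and was not called (adjusted p = 0.16). With cytokines the log2 fold changes were 0.67 ± 0.31 for *Krt18* (adjusted p = 0.29) and 0.82 ± 0.40 for *Krt8* (adjusted p = 0.33). All treated KO libraries were above all treated WT libraries for *Krt18* (6.40 to 9.17 against 3.06 to 6.11 CPM), while those of *Krt8* overlapped. In limma voom with the mouse as a random block, *Krt18* was called there (0.093), as it was with only the groups compared (0.033). *Krt8* was called there with only the groups compared (0.091) and without WT replicate 1 (0.025). The sum of endothelial markers was also higher in untreated KO cells (median sum 3.07 CPM against 2.08 CPM in WT), with *Pecam1* called. Hair follicle markers summed to 211 to 252 CPM in untreated KO and 158 to 202 CPM in WT cells, without overlap and with none of the 6 called, and *Epcam* was higher in KO by less than 1.5-fold (log2 0.47, adjusted p = 0.0041). The part of these markers in the keratin differences was not tested.

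*Krt90* was higher in KO cells under basal conditions (0.0867 to 1.01 CPM against 0.0805 to 0.213 CPM, log2 1.35 ± 0.44, adjusted p = 0.053). This call rested on few counts, between 4 and 53 per library. It was lost in limma voom with the mouse as a random block (0.34) and with only the groups compared (0.24). Leaving out WT replicate 3 (0.14), WT replicate 4 (0.11) or KO replicate 2 (0.16) also lost it. *Krt42* had 2.74 to 9.70 CPM in WT and 4.76 to 10.002 CPM in KO libraries under basal conditions (log2 0.65 ± 0.26, adjusted p = 0.11). It was called in limma voom with the mouse as a random block (0.077) and by DESeq2 (0.095). It was also called when WT replicate 1 (0.0014) or 1 of the KO replicates 6 (0.091) and 8 (0.0496) was left out. With cytokines *Krt42* was called without WT replicate 1 (0.065).

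Basal and stress-induced keratins differed little between genotypes. *Krt5*, *Krt14* and *Krt6a* had log2 fold changes between -0.07 and 0.03, all with adjusted p of 0.27 or more, and *Krt15* was at -0.02 under basal conditions and 0.48 with cytokines (adjusted p = 0.34), where it was called without WT replicate 1 (0.091) or KO replicate 8 (0.099). *Krt17* was higher in KO cells under basal conditions by 1.25-fold (log2 0.32 ± 0.05, adjusted p = 0.00011), under the fold threshold. *Krt16* (log2 -0.25 ± 0.08, adjusted p = 0.042) and *Krt6b* (log2 -0.35 ± 0.11, adjusted p = 0.053) were lower there, also under the threshold. All treated KO libraries were above all treated WT libraries for *Krt17*, by a small margin (log2 0.14 ± 0.05, adjusted p = 0.18). *Krt16* was at -0.22 ± 0.08 in treated cells (adjusted p = 0.17). With cytokines *Krt6b* had 1040 to 1399 CPM in WT and 807 to 1166 CPM in KO libraries, a 1.38-fold difference (log2 -0.47 ± 0.11, adjusted p = 0.041). Summed with *Krt6a*, the difference was -0.07 on the log2 scale (adjusted p = 0.54). *Krt6a* makes up most of this sum (7624 against 916 CPM for *Krt6b* in treated KO cells), so the sum cannot show whether *Krt6b* itself differed.

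Whether the cytokine response itself differed between genotypes was tested as an interaction. None of the 26 keratins was called by edgeR, against 0.219% of all genes, nor by DESeq2, and 3 (*Krt1*, *Krt17* and *Krt79*) had an unadjusted p under 0.05. *Krt1* fell by 0.67 ± 0.27 more on the log2 scale in KO than in WT cells (adjusted p = 0.39). With the mouse as a block, which removes the level of each mouse from the comparison, this difference was called (adjusted p = 0.0084). For *Krt10* the difference was -0.65 ± 0.35 (adjusted p = 0.61), for *Krt18* -0.70 ± 0.44 (0.68) and for *Krt75* 0.02 ± 0.29 (0.99).

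Genes that act on keratin filaments or their transcription were counted from 3 lists. Of 18 filament anchors and cross-linkers, 4 fell in both genotypes (all genes lower: 5.26% in WT and 4.55% in KO cells) and none rose (all genes higher: 8.65% and 6.33%). These were *Flg* (log2 -2.61 in WT and -2.84 in KO cells) and *Flg2* (-3.09 and -3.44), which bundle keratin filaments in cornifying cells, *Ppl* (-0.65 and -0.62), a plakin that links them to desmosomes, and *Tchh* (-1.02 and -1.05), which cross-links filaments in the inner root sheath. *Flg2* was the one member that differed between genotypes with cytokines (log2 -0.93, adjusted p = 0.090). Of 19 regulators of keratin genes, *Grhl3* and *Tfap2c*, factors of epidermal differentiation, rose in both genotypes (log2 0.64 to 0.95), *Gli2* of hedgehog signalling fell in both (-1.23 and -1.42), and *Notch3* fell in WT cells (-0.81). These 2 higher and at most 2 lower of 19 lie near the shares of all genes. Of 15 intermediate filament genes outside the keratins 7 were tested, and *Lmnb1* in WT and *Bfsp1* in KO cells were higher with cytokines, 1 in each genotype, which is near the share of all genes (8.65% and 6.33%). Melanocyte markers were lower with cytokines, at 437 to 623 CPM untreated and 334 to 477 CPM treated in WT, and at 475 to 638 and 305 to 406 CPM in KO cells, with *Mitf* and *Tyr* called in both genotypes and *Dct* and *Pmel* in KO cells. The fibroblast gene *Col1a2* was called lower in both genotypes. Their part in the fall of the suprabasal keratins was not tested.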

How the data were processed

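Stranded mRNA libraries of primary keratinocytes (26) were sequenced. The authors aligned reads to mm39 with STAR 2.7.10b and counted them per gene with featureCounts 2.0.6, and deposited these counts without normalization. A second deposited table holds log2 normalized counts, which for all keratins equalled the log2 of the scaled count within 0.01 and were not used further. Whether the counting used strand or multiply mapped reads is not given in the sources used here.

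Genes with a mean normalized count over 10 (16893) were fitted with edgeR 4.0.16 in R 4.3.3 (TMM, quasi-likelihood test, group means of all 26 libraries, no covariate) and adjusted by Benjamini-Hochberg over all of them. A gene was called where its adjusted p was below 0.1 and its change exceeded 1.5-fold, as in the methods of the study. CPM values are scaled by TMM, and CPM per kilobase use the canonical transcript. The procedure was tested on simulated data. Transcripts were compared with BLAST 2.17.0. With 42072745 to 78102858 counts per library, counting error is small for genes over 1 CPM. Values were given in full for called keratins with a mean normalized count over 100, for *Krt5*, *Krt14* and *Krt15*, and for *Krt1*, *Krt10* and *Krt6b*, which the study names, and more briefly for others. The members, classes, motifs and lists were chosen with earlier results of these data known.

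Both libraries of a mouse carry its number, so these numbers pair the libraries. Within mice, the departures of both libraries from their group means had correlations of 0.000406 to 0.254 (median 0.106). The mouse entered as a fixed block in edgeR for the cytokine contrasts and the interaction. For the genotype contrasts it entered as a random block in limma 3.58.1 (voom). There the block and the test changed together, so their effects on a call cannot be told apart. Further alternatives were DESeq2 1.42.0, other size factors, total counts, other filters, only the groups compared, no fold threshold, *Krt6a* and *Krt6b* summed, and each mouse left out. Lengths from the union of exons were added after seeing the data, and their effect is given with the levels. Libraries of a group differed by a chi-square of at least 7.37 per degree of freedom, so none repeated another. Sex, litter and batch were not given.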

Additional observations from a re-analysis of the deposited data

Results flagged for a closer look

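Among 84 groups of libraries (21 keratins in 4 groups), 14 held 1 library that stood apart from the others of its group by the gap to its nearest neighbour. Chance gives about 1 in 20 where values are normal and independent. CPM were tested without a log, every flagged library was the highest of its group, and the same libraries recur, so that share is no yardstick here. KO replicate 8 was the highest KO library under basal conditions for *Krt1* (1447 CPM, the next being 1008), *Krt10* (1139 CPM, next 723) and *Krt6a* (11905 CPM, next 11121), and with cytokines for *Krt10* (23.0 CPM, next 14.5) and *Krt6b* (1166 CPM, next 947). Over the 17 keratins with a mean normalized count over 100, this mouse had the highest value of its group for 8 under basal conditions and for 7 with cytokines, while WT replicate 2 was highest for 9 under basal conditions and WT replicate 1 lowest for 8 with cytokines.

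WT replicate 1 was the highest WT library under basal conditions for *Krt8* (8.82 CPM, next 3.08) and *Krt42* (9.70 CPM, next 4.25), and with cytokines for *Krt15* (4.80 CPM, next 2.95). WT replicate 2 was highest for *Krt75* under basal conditions (3.32 CPM, next 2.28). KO replicate 2 was highest under basal conditions for *Krt18* (7.92 CPM, next 3.87) and *Krt90* (1.01 CPM, next 0.427). With cytokines KO replicate 4 was highest for *Krt14* (12186 CPM, next 11434) and *Krt7* (111.6 CPM, next 82.5), and KO replicate 1 for *Krt5* (18345 CPM, next 17664).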

How the results depend on the processing

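Without a fold threshold 17 keratins were called for the cytokines in WT, 17 in KO cells and 8 between genotypes under basal conditions. With only the groups compared 4 were called between genotypes with cytokines. With the mouse as a replicate block, which the pairing of libraries allows, the interaction had 1 called keratin, *Krt1*. Leaving out each mouse in turn gave 3 to 8 called keratins between genotypes under basal conditions (8 without WT replicate 1, 3 without WT replicate 3 or WT replicate 4) and 1 to 5 with cytokines (5 without WT replicate 1, 1 without WT replicate 3). These counts cover all keratins fitted, also the scarce ones whose single calls were not followed. The cause of these shifts was not tested. The settings with the mouse as a block changed 6 single calls, given with the results, and no other. Those of *Krt1* and *Krt8* changed within edgeR. Those of *Krt10*, *Krt18*, *Krt42* and *Krt90* changed in limma voom, where the block and the test cannot be told apart. No result turned its direction while called. With DESeq2 size factors, total counts only or filterByExpr no call of a named keratin changed. By exon-union length the order of *Krt1* and *Krt10* turned under basal conditions. Keratins under about 1 CPM in a group, among them *Krt77* with cytokines, *Krt90* under basal conditions and *Krt32* in all groups, rest on few counts there.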
